A study of Rattus norvegicus with 8 samples.

Results

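The genes described here are the cadherins and protocadherins, taken as every gene symbol that begins with Cdh or Pcdh and goes on with a number, with or without the letters of a protocadherin cluster before it. The count table held 69 such symbols among 28909. They comprised 23 cadherins, 11 non-clustered protocadherins and 35 symbols of the clustered protocadherins. Of the 69, 60 passed the filter on low counts (more than 20 reads in at least 2 libraries), among 14309 genes that did. The symbols were taken by name, although earlier results of these data were known when the rule was set.

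The cells were primary hippocampal neurons of embryonic Sprague-Dawley rats, plated on porous filter inserts so that the somata stayed above the filter and the processes grew through it. RNA of the somatic and of the process compartment was taken from mock-treated control cultures and from cultures kept for 48 h in picrotoxin (PTX), a blocker of the GABA-A receptor that raises network activity and starts synaptic downscaling. Ribosomal RNA was depleted, and 2 libraries were sequenced for each of the 4 conditions, named somata control, somata PTX, processes control and processes PTX. The cultures also hold glia, and the process compartment is whatever lies below the filter, so neither compartment is a single cell type.

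Cadherins are calcium-dependent adhesion molecules that bind their own kind across the gap between cells. Classical cadherins are tied to the actin cytoskeleton by the catenins and hold the pre- and postsynaptic membranes together. Type II classical cadherins mark particular hippocampal and cortical connections. Non-clustered protocadherins of the δ group are weaker adhesion molecules that recruit actin regulators or signal inwards, whereas the clustered protocadherins of the α, β and γ groups are expressed in different combinations in single neurons and let a neuron tell its own branches from those of others. Each clustered isoform is made from its own variable first exon. In the α and γ groups that exon is spliced to shared constant exons.

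This arrangement limits how far single isoforms can be read. The α cluster was represented by 1 symbol, Pcdha4, for which the RefSeq gene table lists the other α isoforms as synonyms. Which α exons were counted under this symbol was not tested. The γ cluster had 17 symbols, of which 13 were found in the RefSeq table, and all 13 spanned a stretch shared with another member. Reads from the shared exons therefore cannot be given to 1 γ isoform with certainty. The 17 symbols of the β cluster are genes without a shared constant part, and none overlapped another member, although their sequences resemble each other.

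The 9 symbols that did not pass the filter had between 4 and 42 reads over all 8 libraries. They were Cdh1 (E-cadherin), Cdh3 (P-cadherin), Cdh5 (VE-cadherin), Cdh16, Cdh17, Cdh19, Cdh26, Pcdh12 and Pcdhb1. Cdh5, which marks endothelial cells, had 0 to 13 reads per library, and Cdh1, which marks epithelia, had 0 to 3. Their differences between conditions were not tested.

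Libraries held 12290890 to 18455662 counts. Counts on mitochondrial genes made up 22.6 to 26.7% of the somata libraries and 68.5 to 72.5% of the processes libraries, so 9517542 to 11227599 counts remained for other genes in somata and 4702054 to 5491237 in processes. The cadherin and protocadherin symbols together took 32576 to 38370 counts per library in somata and 8395 to 10403 in processes, or 0.336 to 0.344% and 0.179 to 0.199% of the counts outside the mitochondrial genome. Of 7 activity-regulated genes, 5 (Fos, Npas4, Bdnf, Nptx2 and Homer1) rose with PTX in both compartments, and all 6 dendritic mRNAs listed as process-localized were higher in processes of control and of PTX cultures. The summed level of 7 astrocyte markers was 2755 to 4077 CPM (counts relative to the library size after TMM scaling, the unit of all levels here) in somata and 10788 to 14255 CPM in processes, mainly through Gfap. Neuron markers summed to 1921 to 2294 CPM in somata and 4135 to 5518 CPM in processes, although 6 of the 8 were called lower and 2 higher in processes of control cultures (median −0.65), and microglia markers to at most 1.73 CPM in any library.

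The first comparison asked which of these adhesion genes changed in the somatic compartment with PTX. Of the 60 members, 5 passed the test (edgeR's quasi-likelihood test, Benjamini-Hochberg adjusted p under 0.05), 2 higher and 3 lower, against a background of 3.59% of all genes tested (2.09% higher and 1.5% lower). All 5 were δ2 protocadherins or type II cadherins: Pcdh8 and Cdh12 rose, while Pcdh19, Cdh11 and Cdh9 fell. None of the 34 tested clustered protocadherins was among them. The likelihood ratio test called 7 members (6.79% of all genes) and DESeq2 called 4 (3.52%). At an unadjusted p under 0.05 there were 8 members, against 15.6% of all genes. For 24 of the 60 members the 2 groups did not overlap, against 49% of all genes. The median log2 fold change was −0.07 over the 60 members and −0.01 over all genes tested.

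Pcdh8, also known as arcadlin, is a δ2 protocadherin known as an activity-induced gene that promotes removal of N-cadherin from synapses. Its level was 42.1 and 37.9 CPM in somata control and 89.8 and 66.3 CPM in somata PTX. Both PTX libraries lay above both control libraries. The rise was 1.95-fold (log2 fold change 0.96, SE 0.18, edgeR quasi-likelihood adjusted p = 0.0136). In processes Pcdh8 had 30.8 and 24.7 CPM in control and 48.6 and 35.9 CPM in PTX, again without overlap. That difference did not pass the test (log2 fold change 0.60, SE 0.19, adjusted p = 0.134), but it did with the replicate number as a block (adjusted p = 0.000787), and the likelihood ratio test and DESeq2 gave adjusted p-values of 0.0496 and 0.0495.

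Pcdh8 was also the 1 member whose promoter entry held the letters TATAAA within 30 bases before the annotated start. Promoter sequences from RefSeq (assembly GRCr8, a later build than the one the reads were mapped to) existed for 51 members, and for 2 of the 5 that passed the test in somata. The last 30 bases before the start of these 2, both of which rose, are shown 5′ to 3′ on the strand of the gene, with the match to TATAAA in capitals.
Pcdh8, chr15:61612091-61612120, minus strand: TATAAAgacggaggcggcgctcgccagcgc
Cdh12, chr2:72886502-72886531, plus strand: tttttctcccttcagacagcgaggagcttg
In Pcdh8 the match began 30 bases before the start, at the outer edge of the window, and matches that begin farther upstream were not searched. The same letters, read on the strand of the gene, were present in this window of 1 of 52 promoter entries of members and of 365 of 33469 rat promoter entries (1.09%). The cyclic AMP response element TGACGTCA, searched on both strands of the 250 bases before the start, was in 0 of 52 promoter entries of members and in 531 of 33469 entries in all (1.59%). A match or its absence describes only these letters in these windows.

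Pcdh19, a δ2 protocadherin that forms complexes with N-cadherin and whose human counterpart is an epilepsy gene, showed the largest change among the 60 members. It had 22.3 and 22.2 CPM in somata control and 8.13 and 9.31 CPM in somata PTX. The PTX level was 39.1% of control (log2 fold change −1.35, SE 0.15, adjusted p = 0.000872), and the 2 groups were far apart relative to the spread within each. In processes it had 15.9 and 14.2 CPM in control and 11.6 and 8.95 CPM in PTX. The groups did not overlap, yet the difference did not pass the test (log2 fold change −0.56, SE 0.17, adjusted p = 0.109), except with the replicate block (adjusted p = 0.028).

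The other 3 calls were type II classical cadherins that passed the test in somata. Cdh12 had 16.0 and 14.6 CPM in control and 24.1 and 27.8 CPM in PTX, a rise of 1.70-fold (log2 fold change 0.76, SE 0.13, adjusted p = 0.01). Cdh11 had 59.8 and 62.0 CPM in control and 37.2 and 39.2 CPM in PTX, which was 62.7% of control (log2 fold change −0.67, SE 0.10, adjusted p = 0.00489). Cdh9, which is known from the synapses between dentate granule cells and CA3 neurons, had 14.9 and 13.6 CPM in control and 8.92 and 8.89 CPM in PTX, also 62.7% of control (log2 fold change −0.67, SE 0.14, adjusted p = 0.0257). For each of the 3 genes the PTX libraries lay on one side of both control libraries. The call of Cdh9 was lost in DESeq2 (adjusted p = 0.0895). Leaving out 1 of the 4 somata libraries reduced the count of 5 to 2 without control replicate 1, to 1 without control replicate 2, to 2 without PTX replicate 1 and to 3 without PTX replicate 2, and Pcdh19 was called in every one of these fits, with adjusted p-values up to 0.0112. Without control replicate 1, control replicate 2 and PTX replicate 1, Pcdh8 had adjusted p-values of 0.0609, 0.135 and 0.11. Cdh12 had 0.0543, 0.129 and 0.0944 without control replicate 1, control replicate 2 and PTX replicate 2. Cdh11 had 0.0592 without control replicate 2 and 0.0649 without PTX replicate 1, and Cdh9 had 0.121 to 0.194 without any one of the 4. All kept their direction.

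With the replicate number as a block, 9 members passed the test in somata, 5 higher and 4 lower, against 14% of all genes (7.21% higher and 6.79% lower). The 4 that were added are named here after their values were seen. Cdh13 (T-cadherin), a cadherin held at the membrane by a lipid anchor, had 79.8 and 67.3 CPM in control and 115 and 86.5 CPM in PTX (log2 fold change 0.46, adjusted p = 0.243, with the block 0.000752). Cdh22, a type II cadherin, had 12.4 and 13.1 CPM in control and 16.3 and 20.3 CPM in PTX (log2 fold change 0.52, adjusted p = 0.0804, with the block 0.00514). For Cdh13 and Cdh22 the PTX libraries were above both controls. Cdh8, another type II cadherin, had 41.1 and 28.1 CPM in control and 48.3 and 40.0 CPM in PTX, so its groups overlapped (log2 fold change 0.35, adjusted p = 0.42, with the block 0.0132). Cdh10, which is closely related to Cdh9, had 33.8 and 32.6 CPM in control and 22.8 and 25.5 CPM in PTX (log2 fold change −0.46, adjusted p = 0.0547, with the block 0.00174). The likelihood ratio test without the block also called Cdh10 (adjusted p = 0.011) and Cdh22 (adjusted p = 0.0253). With upper quartile scaling the quasi-likelihood test called Cdh10 as well (adjusted p = 0.0469). In the quasi-likelihood test with TMM, 3 of the 11 tested type II cadherins passed without and 6 with the block.

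**Figure D1:**
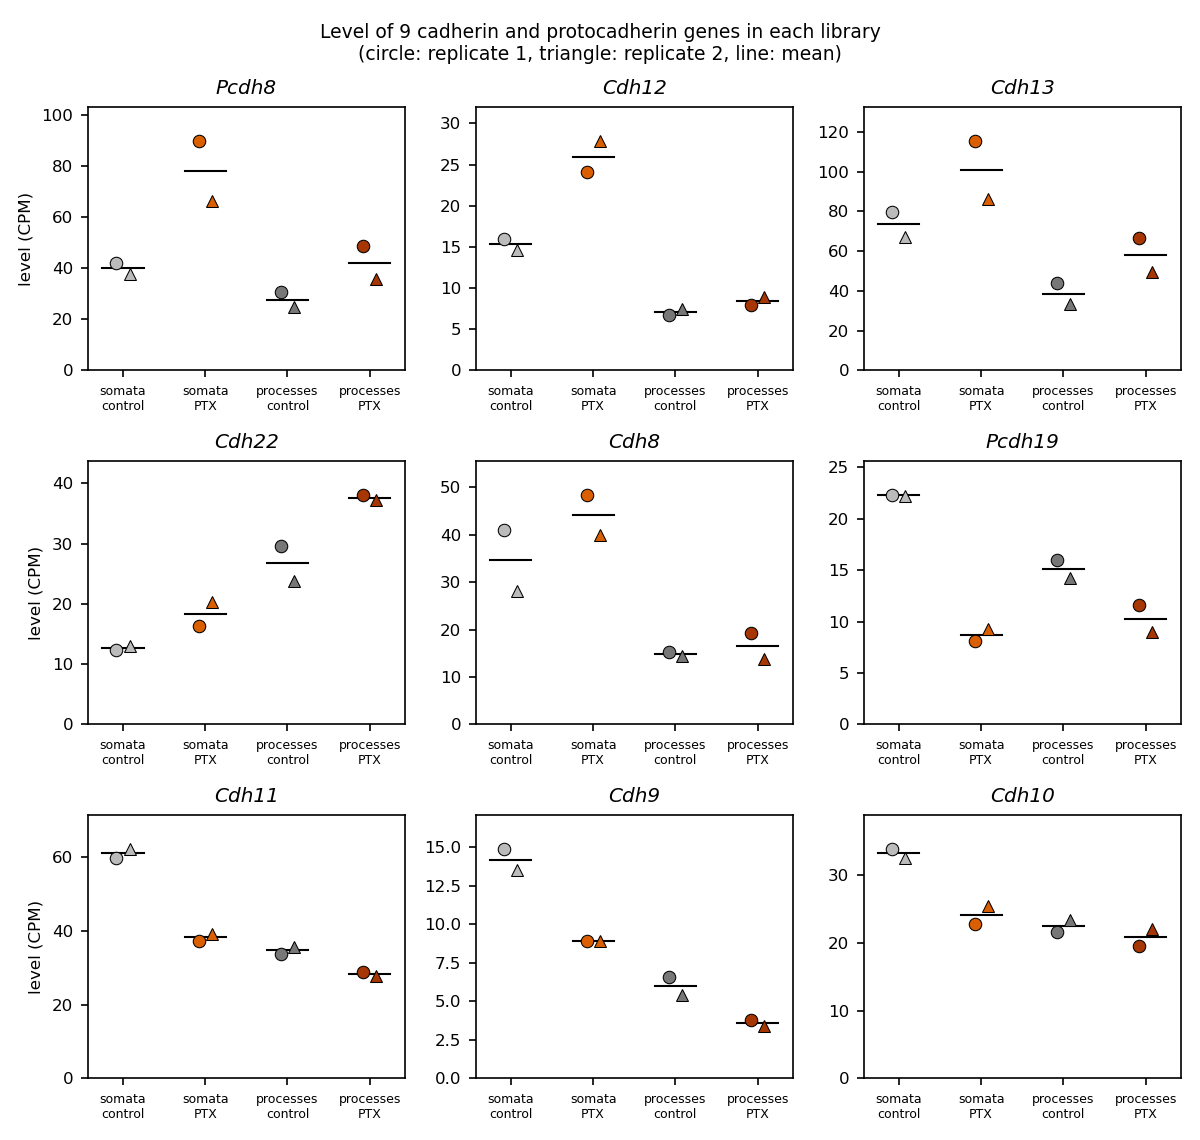
Level in CPM (TMM-scaled, linear axis from 0) of the 9 members called for PTX in somata with the replicate block, in each of the 8 libraries; circles are replicate 1, triangles replicate 2 and lines the means of 2 libraries. Pcdh8 and Cdh12 sit higher and Pcdh19, Cdh11 and Cdh9 lower in somata PTX than in somata control, and Cdh22 is the gene of the 9 that is higher in processes than in somata in both treatments on this scale, though lower with scaling by library totals alone.

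Beside these values, the neuron markers Gad1 and Gad2, which make GABA in inhibitory neurons, were higher in somata PTX (log2 fold change 0.82, adjusted p = 0.0247, and 0.92, adjusted p = 0.0328), and Rbfox3 was lower (−0.67, adjusted p = 0.0221). The astrocyte marker Gja1 was lower (−0.61, adjusted p = 0.0215), and the other 6 of 7 astrocyte markers did not pass the test. Of the mitotic markers 1 of 4 was higher (4 with the replicate block), and their sum was 83.1 to 91.2 CPM in control and 109 to 145 CPM in PTX. Of the endothelial and mural markers 1 of 3 tested, Kdr, was higher. No meningeal or oligodendrocyte-lineage marker passed, and with the block 3 of 5 meningeal markers were higher and 4 of 8 neuron markers lower. Their part in the differences of the cadherins was not tested. In bulk RNA of this kind, fewer cells of a type and less RNA per cell cannot be told apart.

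The same comparison in the process compartment called 0 of 60 members with edgeR's quasi-likelihood test, against 3.74% of all genes (1.64% higher and 2.1% lower). At an unadjusted p under 0.05 there were 8 members, against 16.6% of all genes. The likelihood ratio test and DESeq2 each called 1, Pcdh8, against 6.63% and 4.58% of all genes. With the replicate block 5 passed, against 11.2% of all genes (5.1% higher and 6.09% lower). Pcdh8, Cdh13 and Cdh22 were higher and Cdh9 and Pcdh19 lower, the direction each had in somata.

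Cdh9 had 6.58 and 5.4 CPM in processes control and 3.79 and 3.42 CPM in processes PTX (log2 fold change −0.74, SE 0.21, adjusted p = 0.0818, with the block 0.0376). Cdh13 had 43.7 and 33.4 CPM in control and 66.5 and 49.4 CPM in PTX (log2 fold change 0.58, SE 0.20, adjusted p = 0.155, with the block 0.000385). Cdh22 had 29.6 and 23.8 CPM in control and 38.0 and 37.2 CPM in PTX (log2 fold change 0.49, SE 0.15, adjusted p = 0.107, with the block 0.0153). In none of the 3 genes did the groups overlap. Over all members the groups did not overlap for 24 of 60 in this comparison, against 42.4% of all genes. Cdh11, at 33.8 and 35.6 CPM in control and 28.8 and 27.9 CPM in PTX, was not called with or without the block (log2 fold change −0.29, adjusted p = 0.21, with the block 0.0931). Neither was Cdh12, at 6.69 and 7.40 CPM in control and 7.92 and 8.95 CPM in PTX (log2 fold change 0.26, adjusted p = 0.514). Of the marker lists, 3 of 4 mitotic markers were higher in processes PTX, with a sum of 124 to 145 CPM in control and 241 to 245 CPM in PTX, and 2 of 8 neuron markers were higher, Gad2 (0.92, adjusted p = 0.0384) and Slc17a7 (adjusted p = 0.0172). The median log2 fold change of the 8 neuron markers was −0.23, and with the block 3 were higher and 4 lower. Their sum was 5197 to 5518 CPM in processes control and 4135 to 4855 CPM in processes PTX. No astrocyte, oligodendrocyte-lineage, meningeal or tested endothelial and mural marker passed there. Their part in the values of the cadherins was not tested.

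A difference that passed in somata and not in processes does not show that the compartments responded differently, so the difference itself was tested as an interaction. A positive value means that the log2 fold change was larger in processes. No member passed, nor did any of the 14309 genes in this fit (background 0%). At an unadjusted p under 0.05 there were 4 members, Pcdh19, Pcdhga2, Cdh11 and Cdh12, against 4% of all genes. The likelihood ratio test, DESeq2 and the replicate block also called 0 members, against 0.028%, 0.028% and 0.105% of all genes. Pcdh19 had the smallest p: the difference was 0.79 on the log2 scale, its fall being smaller in processes (SE 0.22, unadjusted p = 0.00472, adjusted p = 1, with the block 0.162). The differences were −0.50 for Cdh12 (SE 0.22) and 0.38 for Cdh11 (SE 0.15). For Cdh9 it was −0.06 (SE 0.25) and for Cdh22 −0.03 (SE 0.21).

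Across members, the log2 fold changes for PTX had the same sign in both compartments for 40 of 60 (66.7%), against 67.3% of all genes. The share was 22 of 26 (84.6%) among the cadherins and non-clustered protocadherins and 18 of 34 (52.9%) among the clustered protocadherins. These 2 comparisons share no library, but libraries with the same replicate number deviated together.

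**Figure D2:**
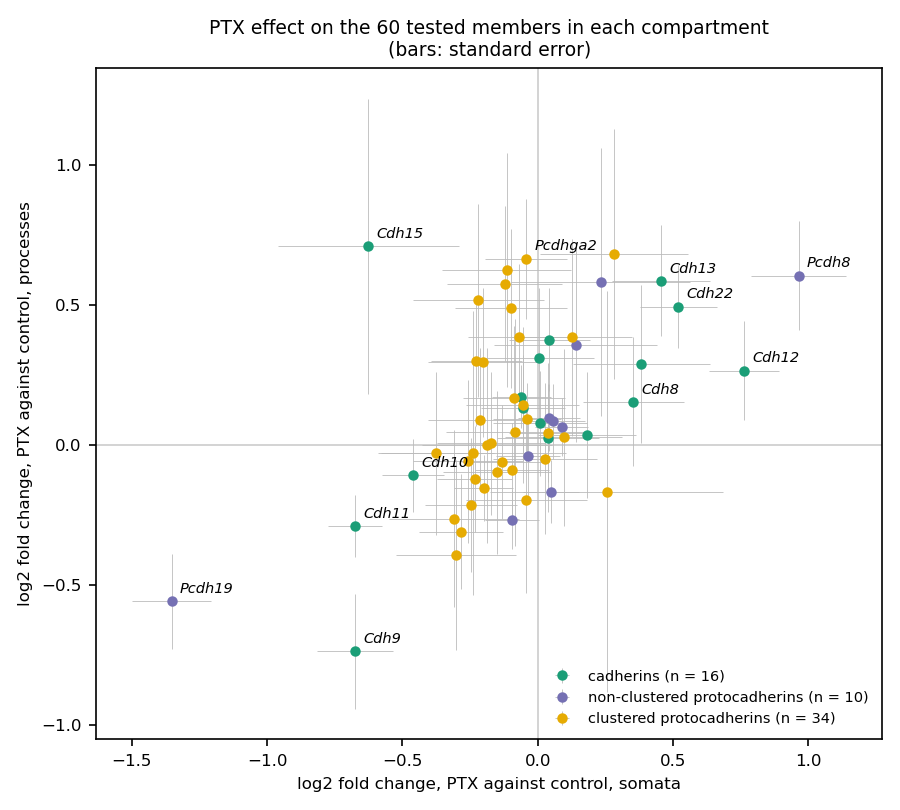
Log2 fold change of PTX against control in somata (horizontal) and in processes (vertical) for the 60 tested members, coloured by class, with bars of 1 standard error in each direction. The clustered protocadherins lie between −0.37 and 0.28 on the somatic axis, while Pcdh8 (0.96) and Pcdh19 (−1.35) lie farthest out on either side.

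Of the clustered protocadherins, 0 of 34 passed for PTX in somata and 0 of 34 in processes with edgeR, where 3.59% and 3.74% of all genes did. With the replicate block it was again 0 and 0, against 14% and 11.2% of all genes. At an unadjusted p under 0.05 there were 0 in somata and 1, Pcdhga2, in processes, against 15.6% and 16.6%. The likelihood ratio test and DESeq2 called none of them either. Their log2 fold changes ranged from −0.37 to 0.28 in somata (median −0.13) and from −0.39 to 0.68 in processes (median 0.02). In somata 28 of the 34 values were below 0, compared with 51.1% of all genes, and in processes 16 were, compared with 51.6%. Since the γ isoforms share exons, these values are not 34 separate observations.

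The depth behind these isoforms was low. The median clustered protocadherin had 151.25 reads per library in somata and 31.25 in processes, against 1416.375 and 273.25 for the non-clustered protocadherins. The median standard error for PTX in processes was 0.28 for the clustered and 0.14 for the non-clustered protocadherins. Pcdha4, the 1 symbol of the α cluster, was measured more deeply and had 130 and 115 CPM in somata control and 114 and 99.7 CPM in somata PTX (log2 fold change −0.20, SE 0.11, adjusted p = 0.442). In processes it had 54.6 and 54.4 CPM in control and 49.7 and 48.3 CPM in PTX (log2 fold change −0.15, SE 0.12, adjusted p = 0.58). Pcdhga2 had 4.8 and 3.88 CPM in processes control and 5.86 and 7.84 CPM in processes PTX (log2 fold change 0.66, SE 0.21, adjusted p = 0.135). In somata Pcdhga2 lay between 12.1 and 13.3 CPM in all 4 libraries.

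Several abundant members differed little with PTX. N-cadherin (Cdh2), the main type I cadherin of excitatory synapses, had 128 and 132 CPM in somata control and 115 and 134 CPM in somata PTX (log2 fold change −0.06, SE 0.11, adjusted p = 0.876). In processes it had 113 and 110 CPM in control and 122 and 129 CPM in PTX (log2 fold change 0.17, SE 0.11, adjusted p = 0.506). Pcdh17, a δ2 protocadherin of presynaptic terminals, stayed between 59.0 and 68.8 CPM in all 8 libraries. Pcdh1, of the δ1 group, lay at 84.4 and 81.9 CPM in processes control and 70.2 and 67.9 CPM in processes PTX, without overlap but short of the threshold (log2 fold change −0.27, SE 0.11, adjusted p = 0.225).

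The second question was how the mRNAs are divided between somata and processes. In control cultures 43 of 60 members differed between the compartments, 40 lower and 3 higher in processes, against a background of 47.7% of all genes tested (21.9% lower and 25.8% higher). In PTX cultures 33 differed, 29 lower and 4 higher, against 49.8% (24% lower and 25.7% higher). These counts include 8 members that passed the filter on low counts only through the somata libraries. They held 6 of the 40 lower calls in control cultures and 5 of the 29 in PTX cultures. The median log2 difference of processes against somata was −0.76 in control cultures and −0.56 in PTX cultures over the 60 members, and −0.05 in both over all genes. No library is shared between the control and the PTX comparison, and 31 members passed in both, each with the same sign in both, which is 72.1% of the 43 and 93.9% of the 33. Over all genes the overlap was 5658, which is 82.9% of the calls in control and 79.5% of those in PTX cultures.

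These differences are relative to the bulk of the genes in each compartment. TMM factors were 1.81 to 1.93 in somata and 0.486 to 0.57 in processes, and when libraries were scaled by their totals alone, mitochondrial counts included, the median of all genes moved to −1.86 in control and −1.87 in PTX cultures and all 60 members were lower in processes. Upper quartile scaling, which moved the median of all genes to −0.25 and −0.23, gave 50 members lower and 1 higher in control cultures and 40 lower and 2 higher in PTX cultures. The share of all genes called with that scaling is not given here. Leaving out single libraries of the compartments compared reduced the control count to as few as 27, without processes control replicate 2, and the PTX count to as few as 22, without processes PTX replicate 1. Of the 43 calls, 18 held without any one library, and of the 33, 14 did. The groups did not overlap for 55 of 60 members in control cultures, against 74.9% of all genes, and for 51 in PTX cultures, against 75.9%.

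The counts and medians include 8 members, 7 of them clustered, that passed the filter on low counts only through the somata libraries, and they describe the tested members alone. By class, 25 of the 34 clustered protocadherins were lower in processes and 0 higher in control cultures, with a median of −0.90. Among the 16 tested cadherins 9 were lower and 3 higher, with a median of −0.54. Among the 10 non-clustered protocadherins 6 were lower and 0 higher, with a median of −0.54. Calls of each of these classes in control cultures were among those lost without single libraries. The differences between the class medians were not tested. In PTX cultures the counts were 18 lower and 1 higher for the clustered protocadherins, 7 lower and 3 higher for the cadherins and 4 lower and 0 higher for the non-clustered protocadherins. The astrocyte and neuron markers given above also differed between the compartments (astrocyte 3 of 7 higher and 2 lower, neuron 2 of 8 higher and 6 lower in processes of control cultures), and their part in these differences was not tested.

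Pcdh20, a non-clustered protocadherin, was lower in processes in both treatments and had at least 158 reads in every library. It had 59.3 and 52.0 CPM in somata control against 22.3 and 18.6 CPM in processes control, or 36.8% (log2 difference −1.44, SE 0.13, adjusted p = 9.64e-06). In PTX cultures it had 55.0 and 53.5 CPM in somata and 18.7 and 21.0 CPM in processes, or 36.7% (log2 difference −1.45, SE 0.13, adjusted p = 8.94e-06). The 2 comparisons gave nearly the same value. Pcdha4 was at 44.5% of its somatic level in control cultures (log2 difference −1.17, SE 0.11, adjusted p = 1.56e-05) and at 45.9% in PTX cultures (−1.12, SE 0.11, adjusted p = 2.05e-05).

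Of the type II cadherins, Cdh8, Cdh9 and Cdh12 were also far lower in processes. Cdh9 was at 42.3% of its somatic level in control cultures (log2 difference −1.24, SE 0.16, adjusted p = 0.000136), and Cdh8 at 42.8% (−1.22, SE 0.21, adjusted p = 0.000833). Cdh12 was at 46.1% in control cultures (−1.12, SE 0.16, adjusted p = 0.000208) and at 32.6% in PTX cultures (−1.62, SE 0.15, adjusted p = 1.01e-05). Cdh8 and Cdh9 were at 37.3% and 40.4% in PTX cultures. Pcdhga2 was at 34.3% (log2 difference −1.54, SE 0.19, adjusted p = 8.31e-05) and, with 27 and 18 reads in processes control, Pcdhb10 lay at −1.20 (adjusted p = 0.00766, without processes control replicate 2 0.0705). The differences of the 8 members that passed the filter only through the somata libraries are given as values without a test. Pcdhb8 had 77 to 146 reads in somata and 10 to 19 in processes (−2.01 in control cultures). M-cadherin (Cdh15) had 27 to 53 reads in somata and 4 to 12 in processes (−1.37 in control and −0.04 in PTX cultures). The other 6 were Pcdhb4 (−1.44), Pcdhb14 (−1.31), Pcdhb12 (−1.27), Pcdhb6, Pcdhb21 and Pcdhga9. The 8 held 6 of the 40 lower calls in control cultures and 5 of the 29 in PTX cultures.

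On the TMM scale 3 members were higher in processes in both treatments, and all 3 were lower with scaling by totals alone. They are named after their values were seen. Cdh22 had 12.4 and 13.1 CPM in somata control and 29.6 and 23.8 CPM in processes control, which is 2.10-fold (log2 difference 1.07, SE 0.15, adjusted p = 0.000206). In PTX cultures it had 16.3 and 20.3 CPM in somata and 38.0 and 37.2 CPM in processes, 2.06-fold (1.04, SE 0.14, adjusted p = 0.000169). Every processes library was above every somata library, and the call held without any one library. Cdh7, a type II cadherin, had 10.8 and 9.28 CPM in somata control and 16.3 and 14.3 CPM in processes control (0.61, SE 0.18, adjusted p = 0.0181), and the log2 difference was 0.68 in PTX cultures (adjusted p = 0.00962). Cdh23, best known from the tip links of hair cells, had 3.36 and 2.70 CPM in somata control and 5.35 and 5.28 CPM in processes control (0.81, SE 0.28, adjusted p = 0.0329), and 0.72 was its log2 difference in PTX cultures (adjusted p = 0.0413). The calls of Cdh7 and Cdh23 changed with the scaling and with single libraries. With upper quartile scaling they were lost for both in control cultures (adjusted p = 0.081 and 0.087) and for Cdh23 in PTX cultures (adjusted p = 0.105). In control cultures Cdh7 had adjusted p-values of 0.11 without processes control replicate 1 and 0.107 without somata control replicate 2, and in PTX cultures 0.0992 without processes PTX replicate 1 and 0.0611 without somata PTX replicate 2. Cdh23 lost its call without any one of the 4 control libraries (adjusted p 0.0519 to 0.154) and, in PTX cultures, without processes PTX replicate 1 (0.29 on the log2 scale, adjusted p = 0.42) and without any of 4 other libraries (0.0546 to 0.18).

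A few abundant members were spread evenly on the TMM scale. Cdh2 had 128 and 132 CPM in somata control and 113 and 110 CPM in processes control (log2 difference −0.23, SE 0.11, adjusted p = 0.118, with the replicate block 0.0424). In PTX cultures its difference was 0.01 (SE 0.11, adjusted p = 0.966). Pcdh17 (−0.07, SE 0.10), Pcdh1 (0.00, SE 0.10) and Pcdh10 (0.01, SE 0.12), all of the δ group, were likewise not called in control cultures, and neither were they in PTX cultures. With upper quartile scaling Cdh2 (−0.43, adjusted p = 0.00834) and Pcdh17 (−0.27, adjusted p = 0.0443) were lower in processes of control cultures, and Pcdh17 (−0.27, adjusted p = 0.042) and Pcdh1 (−0.35, adjusted p = 0.0152) were in PTX cultures. The other 2 δ1 members, Pcdh7 and Pcdh9, were lower in processes (−0.69, adjusted p = 0.00124, and −0.63, adjusted p = 0.000876).

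**Figure D3:**
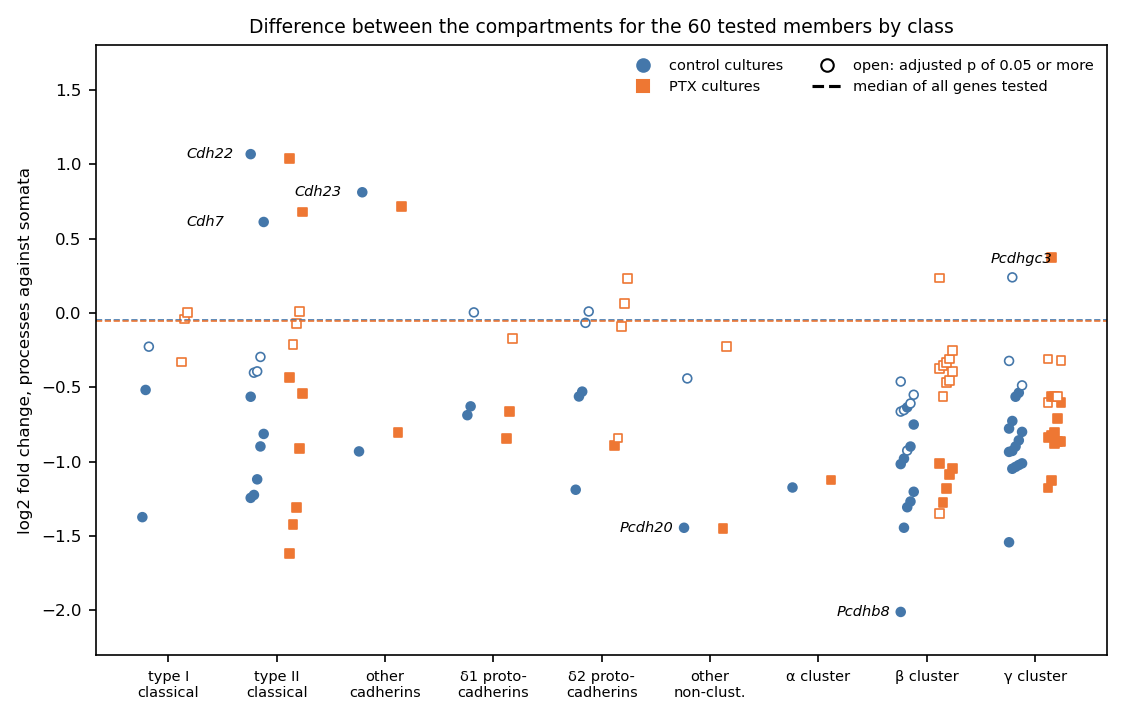
Log2 difference of processes against somata (TMM scale) for the 60 tested members by class, with circles for control and squares for PTX cultures; filled symbols have an adjusted p under 0.05 and the dashed lines are the medians of all genes tested (−0.05 in both). Most symbols lie below 0 in every class except the other cadherins, where 1 of 2 members does. Cdh22, Cdh7 and Cdh23 lie above 0 in both treatments, which was not the case with scaling by totals alone.

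Within the γ cluster, Pcdhgc3 differed from the other 16 symbols. It is one of the C-type isoforms, which are expressed constitutively rather than by random promoter choice. It took 50.6, 53.0, 52.3 and 54.1% of the reads of the γ cluster in the 4 somata libraries, control first, and 70.5, 66.9, 72.2 and 67.9% in the 4 processes libraries. The exact binomial 95% intervals spanned 49.3 to 55.4% over the somata libraries and 64.7 to 74.0% over the processes libraries, and they cover counting error only. All 4 processes libraries were above all 4 somata libraries, and a share within a cluster does not depend on the scaling of the libraries. How the counting assigned reads of the shared exons to this symbol is uncertain, so the share describes the counts under the symbol and was not tested as an isoform ratio.

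The level of Pcdhgc3 was 133 and 144 CPM in somata control and 177 and 150 CPM in processes control (log2 difference 0.24, SE 0.13, adjusted p = 0.139). In PTX cultures it was 127 and 142 CPM in somata and 186 and 162 CPM in processes (0.37, SE 0.13, adjusted p = 0.0298), a call lost without processes PTX replicate 1 (adjusted p = 0.169), without somata PTX replicate 1 (0.185) and with upper quartile scaling (adjusted p = 0.205) and turned to a lower level with scaling by totals (−1.46). The other 16 γ symbols all had values below 0 in both treatments, of which 14 passed in control and 12 in PTX cultures. Of all genes, 21.9% and 24% were called lower in these 2 comparisons. Among the γ symbols Pcdhga9 passed the filter only through the somata libraries. Since the γ isoforms share exons, the 16 values are not separate observations. Several of these calls were lost without single libraries. An example is Pcdhga5 (−1.02, adjusted p = 0.0113 in control cultures). Without processes control replicate 1 its adjusted p was 0.0554, and without processes control replicate 2 it was 0.0602.

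**Figure D4:**
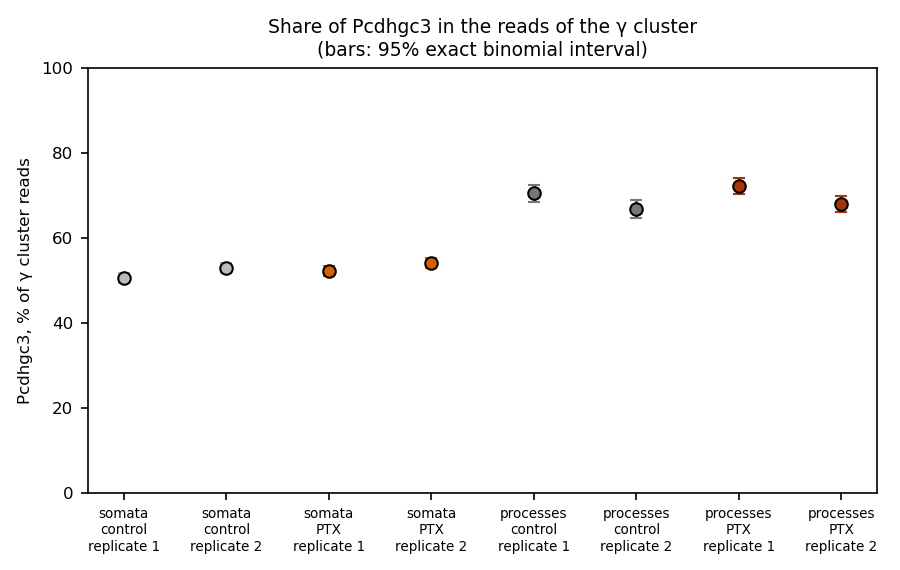
Share of the γ cluster's reads counted under Pcdhgc3 in each of the 8 libraries, in percent on an axis from 0 to 100, with 95% exact binomial intervals as bars. The somata libraries lie between 50.6 and 54.1% and the processes libraries between 66.9 and 72.2%, with control and PTX libraries side by side in each compartment.

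The levels of Pcdh15 and Pcdh18, both non-clustered protocadherins, differed more by replicate number than by treatment, and they are named after their values were seen. Pcdh15, a partner of Cdh23 in tip links that is also expressed by oligodendrocyte precursors, had 18.7 and 20.6 CPM in replicate 1 and 29.6 and 32.8 CPM in replicate 2 of somata control and somata PTX. In processes it had 12.5 and 18.1 CPM in replicate 1 and 23.3 and 27.2 CPM in replicate 2. The summed level of 9 oligodendrocyte-lineage markers was 296 and 272 CPM in replicate 1 and 457 and 421 CPM in replicate 2 of the somata libraries, and 471 and 540 CPM against 606 and 648 CPM in processes. The difference of Pcdh15 between the compartments of control cultures passed the test with the replicate block and not without it on the TMM scale (log2 difference −0.44, adjusted p = 0.292, with the block 0.00273).

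Pcdh18, a δ2 protocadherin, went the other way. It had 8.08 and 9.64 CPM in replicate 1 and 4.97 and 5.59 CPM in replicate 2 of somata control and PTX, and 3.79 and 5.51 CPM against 1.88 and 3.12 CPM in processes. The 5 meningeal fibroblast markers summed to 106 and 119 CPM in replicate 1 and 34.2 and 57.2 CPM in replicate 2 of the somata libraries, and to 59.5 and 86.2 CPM against 29.1 and 32.6 CPM in processes. What the markers contribute to the levels of Pcdh15 and Pcdh18 was not tested.

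The partners of these adhesion molecules were read from lists of pathway genes. Of the cadherin-catenin complex 13 of 14 genes were tested. Plakoglobin (Jup), the catenin related to β-catenin, was the 1 gene that fell in somata, where 1.5% of all genes did. It had 12.7 and 11.9 CPM in control and 8.59 and 6.48 CPM in PTX (log2 fold change −0.70, SE 0.16, adjusted p = 0.0344). In processes it had 14.5 and 14.4 CPM in control and 6.09 and 7.04 CPM in PTX (−1.14, SE 0.19, adjusted p = 0.0102), and the adhesion molecule Nectin1 fell as well (−0.58, adjusted p = 0.03). Beta-catenin (Ctnnb1) and δ-catenin (Ctnnd2) were not called for PTX in somata, at −0.15 and −0.03. With the replicate block 1 gene of the complex was higher and 5 lower in somata (7.21% and 6.79% of all genes), and 1 was higher and 2 lower in processes (5.1% and 6.09%). Between the compartments of control cultures 7 of the 13 were higher in processes and 2 lower on the TMM scale (25.8% and 21.9% of all genes), where scaling by totals moves every gene down by the shift given above. Ctnna2 (1.39), Ctnnd2 (1.34) and Ctnnb1 (1.19) were among the 7, while their partner Cdh2 was not called.

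Of 14 tested cytoplasmic partners of the protocadherins, Ptk2b (PYK2), a kinase bound by clustered protocadherins, and Wasf1 (WAVE1), an actin regulator of the WAVE complex, fell in both compartments. Wasf1 had 38.4 and 38.5 CPM in somata control and 22.1 and 24.4 CPM in somata PTX (−0.72, adjusted p = 0.0141), and in processes 41.4 and 31.8 CPM in control and 18.5 and 20.8 CPM in PTX (−0.90, adjusted p = 0.0102). For Ptk2b the log2 fold changes were −0.88 (adjusted p = 0.0311) and −1.26 (adjusted p = 0.0114). Taok2, a kinase known to act downstream of Pcdh8, fell in processes (−0.51, adjusted p = 0.0412) and had −0.44 in somata (adjusted p = 0.0677). No partner rose. Lower were 2 of 14 in somata and 3 in processes, against 1.5% and 2.1% of all genes, and with the replicate block 7 of 14 in each compartment, against 6.79% and 6.09%.

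Among 12 cadherin-cleaving proteases and their subunits, 11 were not called for PTX in somata, where 3.59% of all genes were called. The other, Mmp9, is an extracellular protease and is described by its levels alone. Its level was 0.17 and 0.08 CPM in somata control and 1.44 and 1.40 CPM in somata PTX. In processes it was 0.11 and 0 CPM in control and 0.69 and 1.01 CPM in PTX. It had 2 to 40 reads per somata library and at most 10 per processes library, and it passed the filter on low counts only through the 2 somata PTX libraries where it is high, so no fold or p is given for it. The protease Adam10, which sheds N-cadherin, was not called (−0.13 in somata, adjusted p = 0.689). Of 11 tested genes of protocadherin promoter choice and chromatin, such as Ctcf and the cohesin subunit Rad21, 0 passed for PTX in either compartment (3.59% and 3.74% of all genes), also with the block, and 8 were higher and 0 lower in processes of control cultures on the TMM scale (25.8% and 21.9% of all genes), which again is relative to that shift (Ctcf 0.64, adjusted p = 0.00143).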

How the data were processed

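Ribosome-depleted RNA of 8 libraries (2 per condition, grouped by the sample labels) was analysed. The authors aligned the reads to the rat genome, counted them per Ensembl gene and summed them by symbol. Their methods name Trimmomatic, Subread subjunc and featureCounts, whereas the submitters' processing notes list STAR, featureCounts, edgeR and Rnor_6.0. The deposited counts are whole numbers without normalization. The deposited tables of the authors' own PTX comparisons (log2 fold changes, likelihood ratios and p-values) were not used. Sequence-similar members and overlapping or antisense genes may share reads.

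With edgeR 4.0.16 in R 4.3.3, a gene was kept if 2 libraries or more held over 20 of its reads, TMM factors were computed and all 8 libraries were fitted with 1 coefficient per condition (glmQLFit, glmQLFTest). P-values were adjusted by Benjamini-Hochberg over 14309 genes in each of 5 comparisons. The standard error was taken from each log2 fold change and its F statistic (the absolute change over the root of F). Levels are TMM-scaled CPM. No transcript lengths were used, so levels of different genes are not ranked. The script was tested on simulated counts.

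Nothing says what the replicate numbers mark, so p-values measure the spread between these samples, which may be technical. Differences between replicate 2 and 1 correlated with r of 0.274 to 0.54 over 6 pairs of conditions, and the numbers were taken to pair the libraries. A replicate block lowered the common dispersion from 0.0132 to 0.00459. Replicates differed by more than sampling noise (chi-square per degree of freedom 9.11 to 21.1).

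The members, the lists of pathway and marker genes and the tests were chosen with earlier results of these data known. Named are the members called for PTX, those with the largest compartment differences, the most abundant ones and Pcdhb5; other members were named after their values were seen. Also tried were DESeq2 1.42.0, the likelihood ratio test, other scalings and filters, only the 4 libraries compared, the block, no mitochondrial genes, and leaving out each library. Promoter entries and gene spans came from RefSeq (GRCr8). The nuclear-retained RNAs of a marker list were not analysed here.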

Additional observations from a re-analysis of the deposited data

How the results depend on the processing

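The count of 5 members called for PTX in somata became 8 without a filter on low counts and 9 with the replicate block, and 1 to 5 when single libraries were left out. The lone library left in a group was then assumed to vary like the others. The count of 0 in processes became 1 with the likelihood ratio test, 1 with DESeq2, 3 without a filter and 5 with the block, and stayed 0 when single libraries were left out. For the interaction 0 members were called under every alternative run. Of processes against somata, 43 members called in control cultures became 27 to 43 when single libraries were left out, and 33 in PTX cultures became 22 to 33, and 60 with scaling by library totals alone. In control cultures the count was 60 with scaling by totals, 51 with upper quartile scaling and 49 with the block. With the block 8272 of all 14309 genes were called in that comparison. Shares over all genes are not given for the 2 scalings or for no filter. Those counts therefore show only how the number of members moved. Scaling by totals also turned the direction of Pcdh19 (−1.60) and Cdh2 (−1.82) in PTX cultures, of Pcdh1 (−1.81) in control cultures and of Pcdhgc3 in control (−1.58) and PTX (−1.46) cultures, where the median of all genes lay at −1.86 and −1.87. Leaving mitochondrial genes out of the totals changed no count of members and no call of a named member. For the members named by rule, the replicate block changed no call beyond those given beside its result and Pcdhb5. Pcdhb5 was lower in processes with the block (−0.60, adjusted p = 0.00523 in control and −0.57, adjusted p = 0.00974 in PTX cultures). Of the δ2 protocadherins, 1 of 5 was lower in processes of PTX cultures without and 2 with the block. Over all 14309 genes it was 3441 without and 4233 with the block. With 31.25 reads per library, the median clustered protocadherin in processes had a median standard error of 0.28 for PTX. The next tally covers the members named by rule, which do not include Cdh7 and Cdh23, over all comparisons. DESeq2 lost 4 calls and added 1, the likelihood ratio test added 1, upper quartile scaling lost 1 and added 6, and the block added 9, all in the same direction. The calls of Cdh7 and Cdh23 that upper quartile scaling lost, given above, are not in it.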

Other observations

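Genes of the wider cadherin superfamily that the symbol rule does not take were also measured, 16 of 27 passing the filter on low counts. In somata 1 rose and 1 fell with PTX, against 2.09% and 1.5% of all genes (4 and 3 with the replicate block, against 7.21% and 6.79%). In processes 1 rose and 1 fell, against 1.64% and 2.1% (2 and 1 with the block, against 5.1% and 6.09%). Clstn2, a calsyntenin of the postsynaptic membrane, fell with PTX in both compartments. It had 48.4 and 45.2 CPM in somata control and 25.1 and 20.1 CPM in somata PTX (log2 fold change −1.05, SE 0.12, edgeR quasi-likelihood adjusted p = 0.00146), and 68.4 and 66.2 CPM in processes control and 40.6 and 38.1 CPM in processes PTX (−0.77, SE 0.13, adjusted p = 0.0101). Fat3, a giant atypical cadherin that shapes dendrites, rose in somata from 133 and 104 CPM to 205 and 188 CPM (0.73, SE 0.13, adjusted p = 0.011) and had 109 and 112 CPM in processes control and 132 and 134 CPM in processes PTX (0.27, SE 0.13, adjusted p = 0.341). The difference between the compartments was not called (interaction −0.46, SE 0.18, adjusted p = 1).

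Ret, a receptor tyrosine kinase with cadherin-like domains, rose in processes from 47.4 and 24.5 CPM to 114 and 69.8 CPM (log2 fold change 1.34, SE 0.31, adjusted p = 0.0419). In somata it had 70.7 and 44.3 CPM in control and 98.1 and 92.5 CPM in PTX (0.73, SE 0.29, adjusted p = 0.245, with the replicate block 8.01e-05). In both compartments the PTX libraries were above both controls, and the other 14 tested genes of the list were not called in processes.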
